A study of Mus musculus with 15 samples.

Results

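The transcripts of 8 genes of the axonal and membrane skeleton were followed in mouse cortex: the neurofilament subunits Nefl, Nefm, Nefh and Ina, the spectrins Sptan1 and Sptbn1, and the ankyrins Ank2 and Ank3. Members were all deposited transcripts whose annotated gene carries one of these names, which gave 29 of 10370 transcripts and 8 of 7741 genes. RNA was measured in 15 libraries of dissected cortex from male C57BL/6 mice, labelled as 12 weeks of age, 1 month after the procedure. The Sham group (7 libraries) received anesthesia with isoflurane and no impacts, and the high-frequency head impact (HF-HI) group (8 libraries) received sets of head impacts daily over several days under the same anesthetic. No transgene or drug is named for either group. The labels do not say whether each library came from a different animal, so p-values measure the spread between these libraries.

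Neurofilaments are heteropolymers of light (Nefl), medium (Nefm) and heavy (Nefh) chains with alpha-internexin (Ina), and they set the caliber of large axons. Spectrin tetramers of alpha (Sptan1) and beta (Sptbn1) chains cross-link actin beneath the membrane, and ankyrins tie that lattice to ion channels and adhesion molecules. Ankyrin-G (Ank3) organizes the axon initial segment and nodes of Ranvier, and ankyrin-B (Ank2) serves the rest of the axon. Proteins of these families are known substrates of proteolysis after axonal injury, which an RNA measurement does not see.

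Levels are given as normalized counts, which are reads divided by the size factor (relative depth) of a library. The listed transcripts held 3496103 reads in the shallowest library (HF-HI replicate 4) and 10582858 in the deepest (Sham replicate 4). Size factors lay between 0.818 and 1.47 in Sham and between 0.501 and 1.22 in HF-HI, and their mean log2 was 0.55 lower in HF-HI (−0.55, exact two-sided permutation p = 0.0280). HF-HI replicate 2 stood apart on the first principal component (14.3% of the variance), at 12.6 against −3.35 to 0.72 for the other libraries. All 6 marker genes of cortical excitatory neurons were listed, with summed levels of 14148 to 16123 normalized counts in Sham and 15129 to 16855 in HF-HI. The 7 listed genes of 8 striatal markers summed to 4022 to 6628 in Sham and 3162 to 6585 in HF-HI, and both listed choroid plexus genes of 5 to 1972 to 11212 and 2018 to 13832.

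Of the 29 transcripts, 1 differed between groups at an unadjusted p under 0.05 (limma on the deposited variance-stabilized values, VSD), where 8.83% of all transcripts did. That transcript was Nefm, which was higher in HF-HI, a direction in which 4.94% of all transcripts were called. No transcript of the series passed the Benjamini-Hochberg adjusted threshold of 0.1 in limma (0%, with 916 of 10370 at an unadjusted p under 0.05). The study itself reported significantly altered genes at 1 month, with a Wald test in DESeq2 on counts. The test and its input differ, so the absence of an adjusted call holds for limma on VSD only. With the listed transcripts of each gene summed, 1 of the 8 genes was called, again Nefm and again higher, against 9.95% of all genes in either direction and 5.4% higher. The 1 call thus made up 3.45% of the member transcripts, and leaving out 1 library gave 0 to 3 calls. A single call, of 29 transcripts or of 8 genes, is too few to set against its background. Mean VSD was higher in HF-HI for 20 transcripts and lower for 9, and the 2 groups overlapped for all 29 transcripts. Neither count was made over all transcripts, so neither is read as a result about the members. The median VSD difference was 0.01 over the members and −0.0013 over all transcripts.

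**Figure D1:**
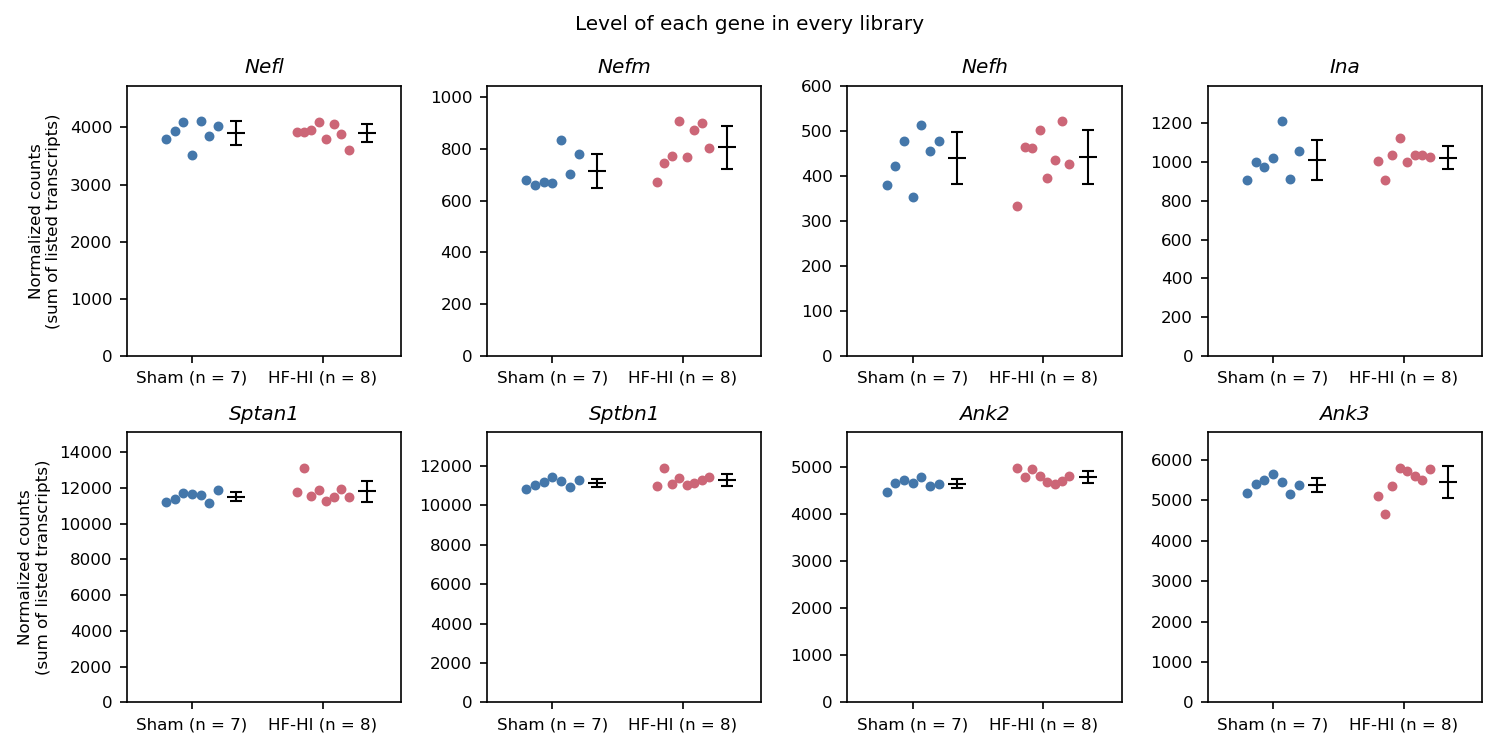
Normalized counts of each gene, summed over its listed transcripts, in the 7 Sham (blue) and 8 HF-HI (red) libraries, on axes that start at 0, with the mean and SD as black bars. The groups overlap for every gene, and Nefm is the gene with the largest relative difference between means, 714 against 806.

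The neurofilament subunits are described first. Each is represented by a single listed transcript, so no assignment of reads between isoforms enters among the listed transcripts. Nefm has 2 annotated transcripts, of which 1 was not listed, so reads could have been divided with that one. Nefl, Nefh and Ina have 1 annotated transcript each. Nefm (ENSMUST00000022638, chr14:68119283-68124846 of GRCm38, minus strand), the medium chain, had between 661 and 833 normalized counts in Sham, with a median of 679. In HF-HI it had between 674 and 907, with a median of 789. The lowest HF-HI library lay among the low Sham libraries, and 7 of 8 HF-HI libraries exceeded the Sham median. Means were 714 ± 66.4 (SD, n = 7) and 806 ± 82.3 (SD, n = 8), a VSD difference of 0.07 (SE 0.03, limma unadjusted p = 0.0274, adjusted p = 0.514). On the log2 scale of the gene sum the difference was 0.17 (95% interval 0.03 to 0.31, limma unadjusted p = 0.0199, adjusted p = 0.405). This corresponds to 12.7% more in HF-HI, with an interval of 2.15% to 24.2%.

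The Nefm difference moved with depth. With log2 size factor as a covariate it was 0.12 on the log2 scale (limma unadjusted p = 0.158), and in libraries with a size factor above 1 it was also 0.12 (limma unadjusted p = 0.125). In those deeper libraries 6 Sham values ran from 661 to 833 (median 691) and 3 HF-HI values from 768 to 804 (median 773). Among the shallower libraries the only Sham value was 673, and 5 HF-HI values ran from 674 to 907 (median 874). The 3 highest Nefm values all came from HF-HI libraries of low depth, replicates 4, 6 and 7. HF-HI replicates 1 and 2, also with size factors below 1 (0.984 and 0.650), had 674 and 745. The highest Sham value, 833, came from replicate 5, with a size factor of 1.43. With group means removed, log2 Nefm correlated with log2 size factor at r = −0.29, a description with no test. Depth and group overlap in these libraries, and the part of depth in the Nefm result cannot be fully told apart from the group. The transcript-level call was lost when any of Sham replicates 1 to 4 or HF-HI replicates 4, 6 and 7 was left out (7 of 15 fits, limma unadjusted p up to 0.0563), while the gene-level call was lost in 0 of 15. Each library gave at least 454 reads for it.

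**Figure D2:**
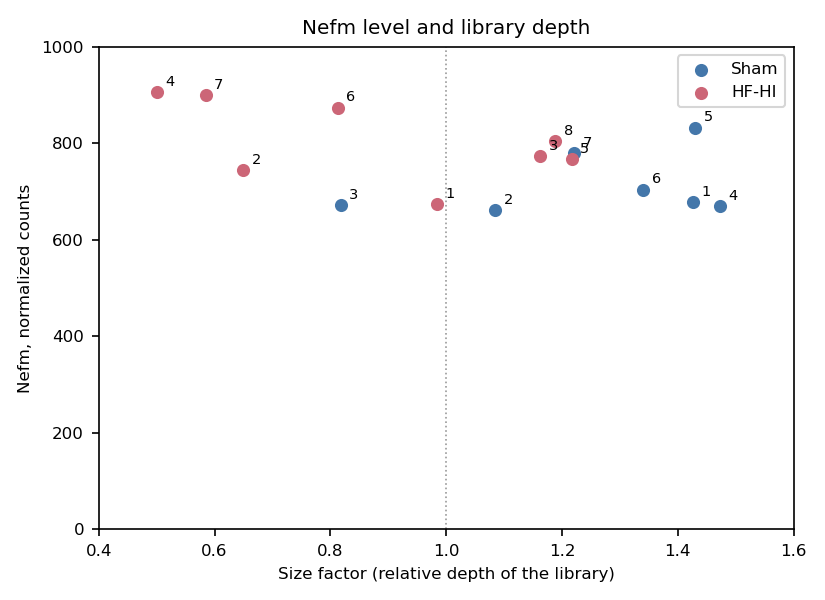
Nefm normalized counts (vertical axis, from 0) against the size factor of each library (horizontal axis), with Sham in blue, HF-HI in red and replicate numbers beside the points. The dotted line marks a size factor of 1, to the right of which lie 6 Sham and 3 HF-HI libraries.

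The other subunits had nearly equal means. Nefl (ENSMUST00000022639, chr14:68083863-68089095, plus strand), the light chain on which assembly depends, ran from 3517 to 4108 in Sham (median 3939) and, for HF-HI, from 3596 to 4102 (median 3924). Its log2 difference was 0.0002, with a 95% interval of −0.08 to 0.08 (limma unadjusted p = 0.995). Nefl thus varied little among all libraries, with a coefficient of variation (CV) of 4.50%. Nefh (ENSMUST00000093369, chr11:4938754-4948064, minus strand), the heavy chain, ran from 354 to 513 in Sham (median 457) and, for HF-HI, from 332 to 522 (median 450). The lowest library of each group, Sham replicate 4 and HF-HI replicate 1, was far below its group's highest, and the interval of the log2 difference was correspondingly wide, −0.19 to 0.20 (limma unadjusted p = 0.955). Ina (ENSMUST00000037636, chr19:47014698-47025327, plus strand), alpha-internexin, ran from 908 to 1210 in Sham (median 999) and, for HF-HI, from 909 to 1124 (median 1029). Its interval was −0.10 to 0.13 (limma unadjusted p = 0.769). Ina shares 456 bases with Nt5c2 on the opposite strand, and the library kit keeps strand. In bulk tissue, a difference in the number of cells and a difference in RNA per cell cannot be told apart.

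Ratios between subunits compare them within a library, free of the size factor. The log2 ratio of Nefm to Ina ran from −0.61 to −0.37 in Sham (median −0.54) and from −0.58 to −0.20 in HF-HI (median −0.33). All HF-HI libraries but replicate 1 lay above the Sham median. The mean differed by 0.16 (exact two-sided permutation p = 0.0166). Nefm to Nefh differed by 0.17 (exact permutation p = 0.0320), higher than the Sham median in 7 of 8 libraries. Nefl to Nefm differed by −0.17 (exact permutation p = 0.0264), lower than the Sham median in 7 of 8. In linear terms Nefl was 5.48 times Nefm in Sham and 4.87 times in HF-HI. The 3 ratios without Nefm differed by −0.0052 (Nefl to Nefh), −0.02 (Nefl to Ina) and −0.01 (Nefh to Ina), with exact permutation p = 0.956, 0.778 and 0.908. Adjusted over the 6 ratios, each of the 3 with Nefm had p = 0.0640 by the exact permutation test. They share Nefm and are not independent of each other or of its own difference, and 0 of 6 was called among libraries with a size factor above 1. At the adjusted threshold of 0.1, leaving out Sham replicate 2 or 3, or any of HF-HI replicates 5, 6 and 8, left 0 calls, and leaving out Sham replicate 6 left 1.

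**Figure D3:**
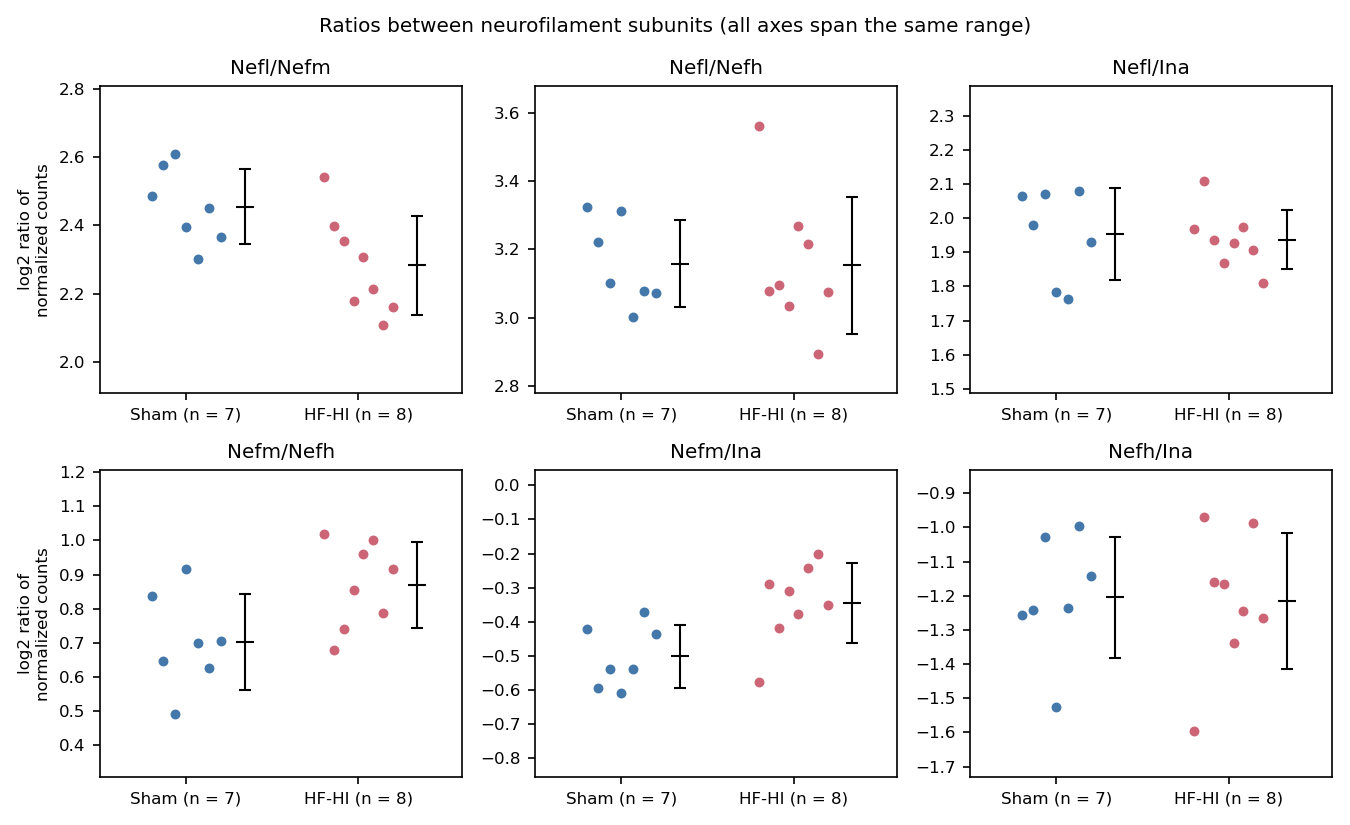
Log2 ratio of normalized counts for each pair of neurofilament subunits in every Sham (blue) and HF-HI (red) library, with mean and SD as black bars, on axes of equal span. The 3 pairs that hold Nefm are shifted by 0.16 to 0.17 in size, with overlapping groups, and the other 3 pairs by less than 0.02.

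Sptan1, alpha-II spectrin, is the common partner of the brain's beta spectrins and was among the most abundant members. Its 7 listed of 16 annotated transcripts summed to between 11149 and 11876 normalized counts in Sham (median 11606) and between 11249 and 13132 in HF-HI (median 11675). HF-HI replicate 2 held the highest value, and the other HF-HI libraries reached 11914. The log2 difference was 0.04 (95% interval −0.03 to 0.10, limma unadjusted p = 0.273), and 0.013 without HF-HI replicate 2 (limma unadjusted p = 0.580). With depth as a covariate it was −0.0026 (limma unadjusted p = 0.940). Sptbn1, beta-II spectrin, had 6 listed of 8 annotated transcripts, which summed to between 10849 and 11424 in Sham (median 11188) and between 10982 and 11915 in HF-HI (median 11196). Its log2 difference was 0.02 (95% interval −0.03 to 0.07, limma unadjusted p = 0.458). These intervals leave room for a difference of no more than 7.27% for Sptan1 and 4.93% for Sptbn1 upward, and reach −2.09% and −2.24% downward.

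Ank2 had 6 listed of 27 annotated transcripts, which summed to between 4468 and 4788 in Sham (median 4649) and between 4646 and 4984 in HF-HI (median 4789). In HF-HI 7 of 8 libraries lay above the Sham median, and the log2 difference was 0.05 (95% interval −0.0051 to 0.10, limma unadjusted p = 0.0753). Without Sham replicate 5 the unadjusted limma p was 0.0489, but over all alternatives it reached 0.660, with coding transcripts alone. Ank3 had 6 listed of 47 annotated transcripts, with sums of 5156 to 5652 in Sham (median 5414) and 4657 to 5811 in HF-HI (median 5553). Its lowest library was HF-HI replicate 2, and the log2 difference was 0.01 (95% interval −0.08 to 0.10, limma unadjusted p = 0.800). It was 0.043 without that library (limma unadjusted p = 0.198) and −0.0029 without HF-HI replicate 4, so neither its size nor its sign is settled.

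**Figure D4:**
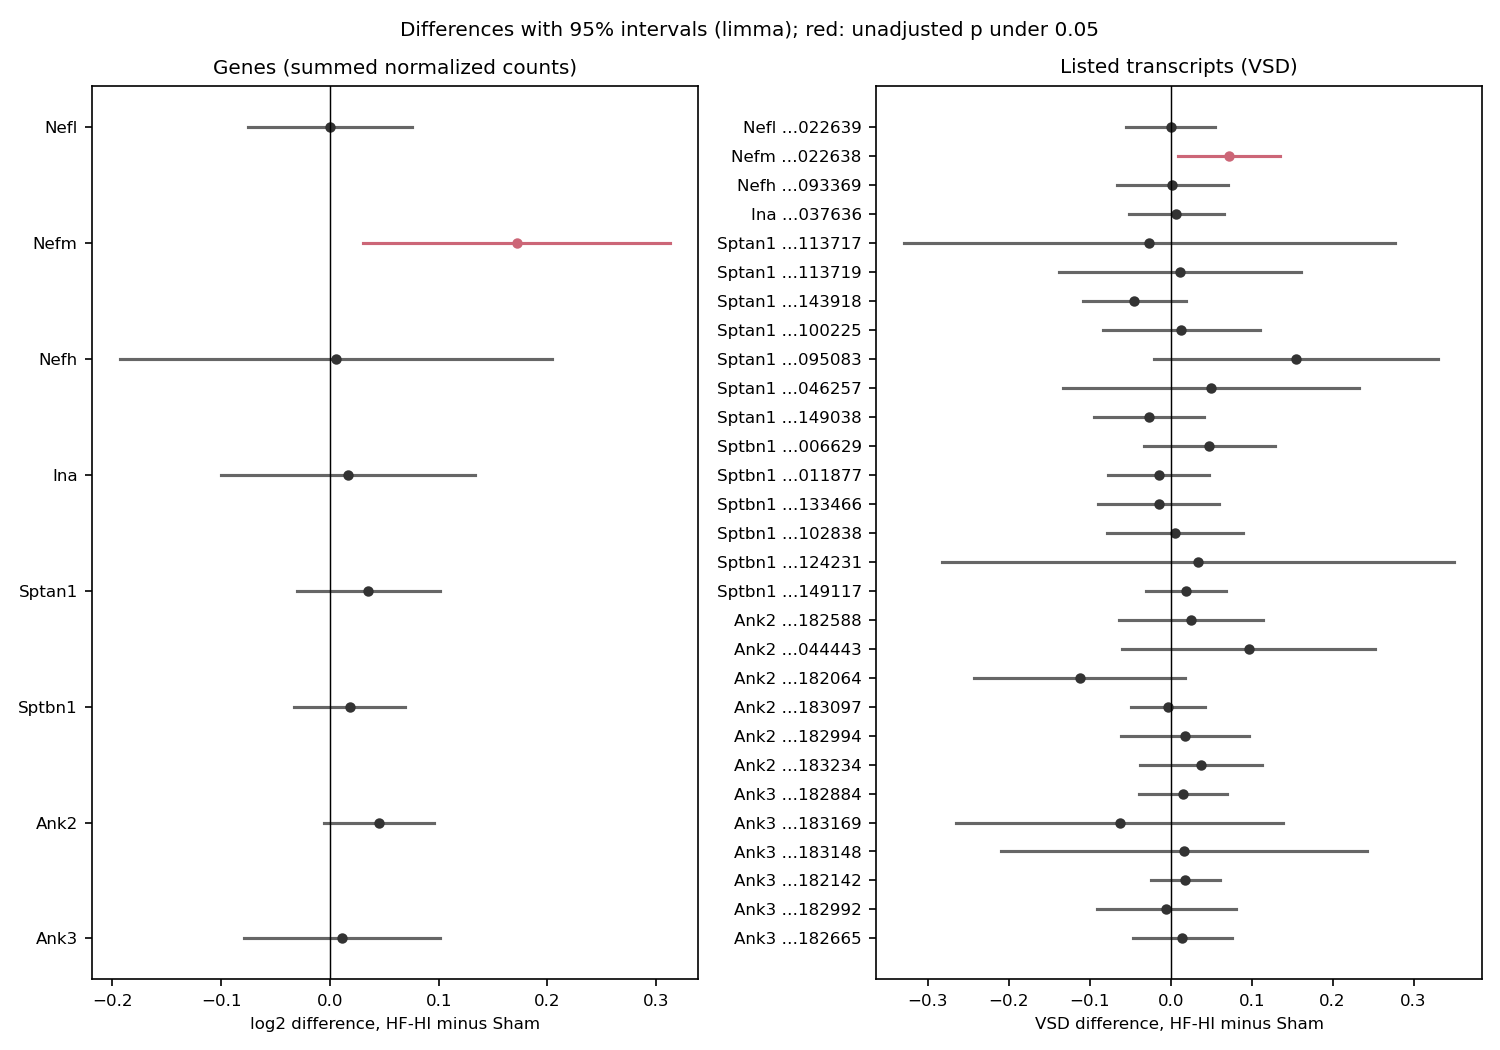
HF-HI minus Sham with 95% intervals from limma, on the log2 scale for the 8 gene sums (left) and on the VSD scale for the 29 listed transcripts, named by the last digits of their identifier (right). Red marks an unadjusted p under 0.05, which holds for Nefm alone, and every other interval crosses 0.

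The gene sums were steadier than their isoforms. Across all 15 libraries the CV was 4.04% for the Sptan1 sum and 7.29% to 44.9% for its transcripts, and 2.36% for Sptbn1 against 4.57% to 66.0%. For Ank2 the CV was 2.85% against 8.74% to 34.9%, and for Ank3 5.59% against 6.50% to 53.0%. The median CV over 1640 genes with a mean of at least 1000 normalized counts was 5.55%. Reads in the sequence that isoforms share are divided between them by estimation, so an isoform's value is less certain than its gene's sum. Whether the extra spread lies in the tissue or in that division was not tested.

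None of the 25 isoform shares (a transcript's percentage of its gene's listed normalized counts) differed between groups at an unadjusted exact permutation p under 0.05, nor did any pass the adjusted threshold. The lowest p, 0.0797 by the exact permutation test, belonged to Sptan1 ENSMUST00000143918, a retained-intron model, with 3.64% ± 0.350 (SD, n = 7) in Sham and 3.22% ± 0.472 (SD, n = 8) in HF-HI. It was below 0.05 without Sham replicate 7 (0.0353) or HF-HI replicate 8 (0.0286) by the same exact test.

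**Figure D5:**
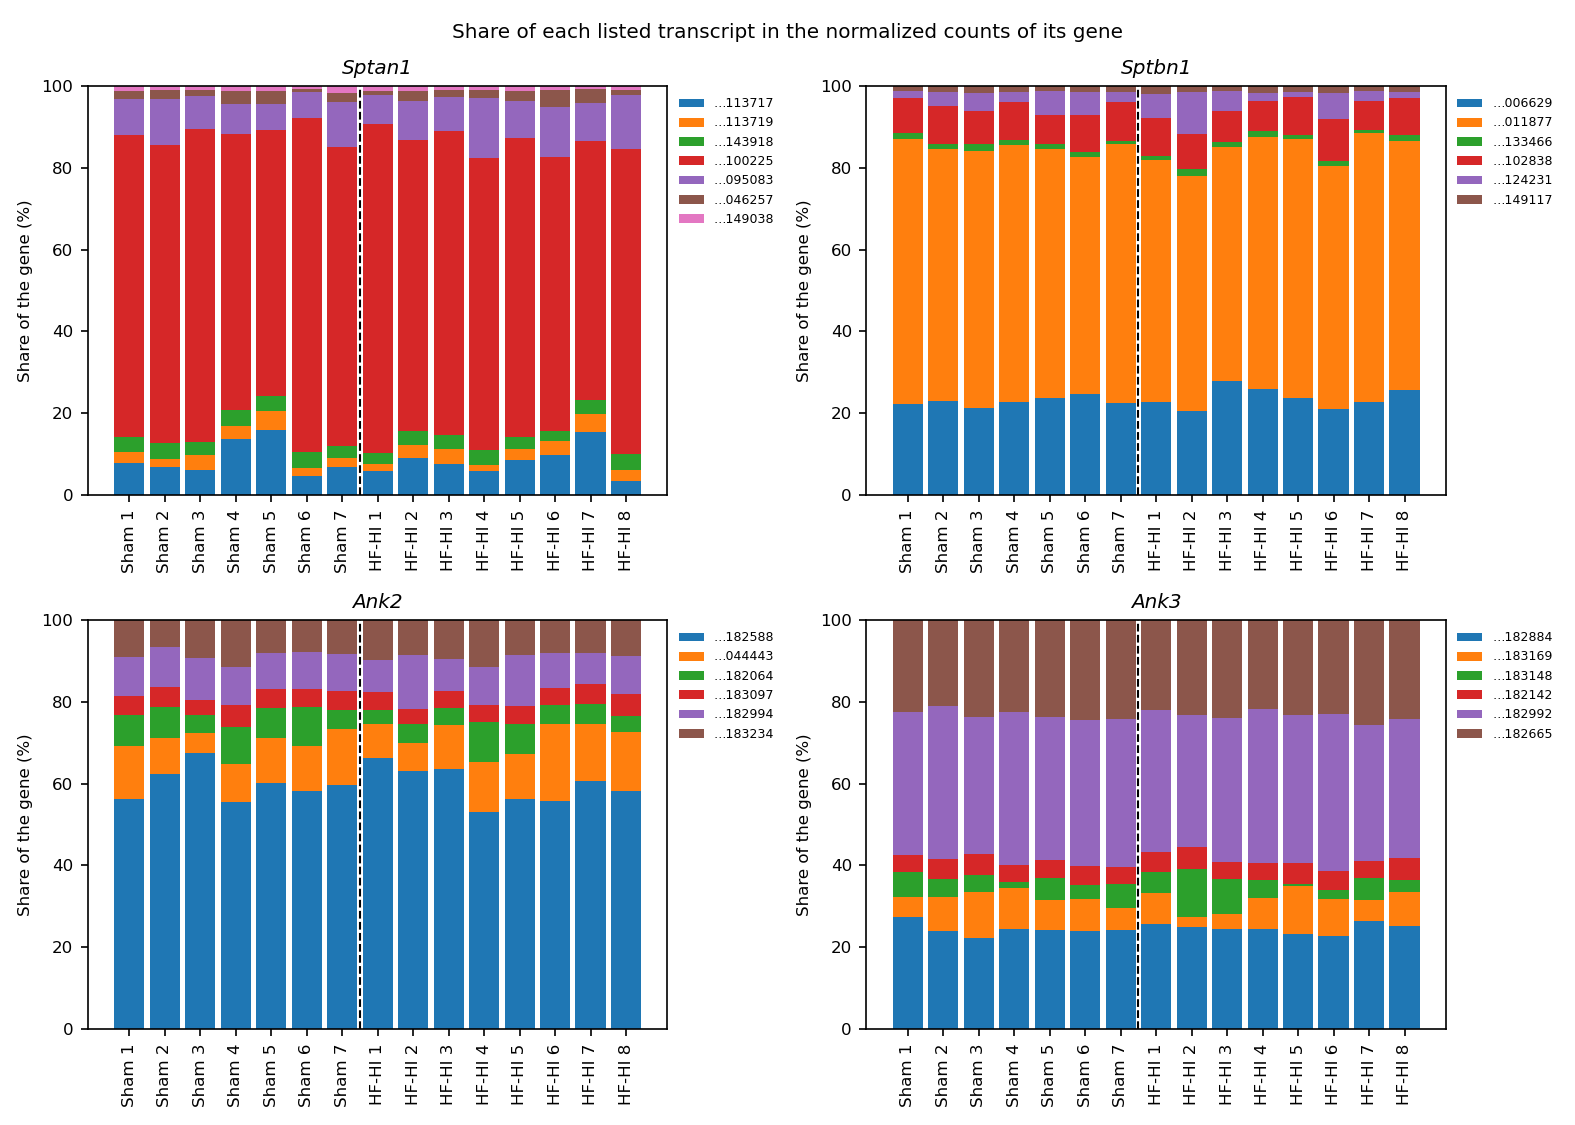
Percentage of each gene's listed normalized counts taken by each listed transcript (colors, named by the last digits of the identifier) in every library, with Sham left and HF-HI right of the dashed line. The transcript with the largest mean share of each gene is the same in both groups, while the order of smaller Sptan1 transcripts differs. Minor transcripts vary from library to library within each group.

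The 5 listed coding transcripts of Sptan1 differ in their exons. The main one, ENSMUST00000100225 (chr2:29965680-30031445, plus strand), held 72.9% ± 5.57 (SD, n = 7) of the gene in Sham and 71.9% ± 5.14 (SD, n = 8) in HF-HI. The exons by which they differ are shown because they separate the spectrin isoforms, with exon bases in capitals and 20 bases of the neighboring exons, as spliced, in lower case. The sequences are of GENCODE M21 transcripts on GRCm38.
60-base exon, chr2:30001100-30001159: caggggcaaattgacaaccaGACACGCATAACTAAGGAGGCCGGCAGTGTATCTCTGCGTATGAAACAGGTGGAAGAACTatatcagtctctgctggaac
the same junction with that exon skipped: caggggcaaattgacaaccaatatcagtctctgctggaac
15-base exon, chr2:30014158-30014172: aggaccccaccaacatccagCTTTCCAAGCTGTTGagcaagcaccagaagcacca
63-base exon, chr2:30028644-30028706: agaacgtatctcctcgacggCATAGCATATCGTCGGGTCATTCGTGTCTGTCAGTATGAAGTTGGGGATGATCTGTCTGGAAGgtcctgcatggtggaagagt

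All 3 exons are whole numbers of codons long (20, 5 and 21), so the frame is kept with or without them. Summed over the listed coding transcripts, those with the 60-base exon made up 85.5% ± 6.17 (SD, n = 7) in Sham and 86.0% ± 5.38 (SD, n = 8) in HF-HI. Those with the 15-base exon made up 88.9% ± 2.36 and 86.7% ± 3.16, and those with the 63-base exon 3.06% ± 1.07 and 3.06% ± 0.995. These percentages are given as a description. Most Sptan1 RNA of this cortex, as assigned, therefore held the first pair of exons and lacked the 63-base exon in both groups.

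Among the other Sptan1 transcripts, ENSMUST00000095083, which lacks the 15-base exon, ran from 703 to 1309 normalized counts in Sham (median 959) and, for HF-HI, from 831 to 1739 (median 1169). Its VSD difference was 0.15 (limma unadjusted p = 0.0798), and 6 of 8 HF-HI libraries exceeded the Sham median. It passed an unadjusted 0.05 without Sham replicate 2 (0.0413), Sham replicate 7 (0.0366) or HF-HI replicate 1 (0.0307) in limma. With depth as a covariate the difference was 0.059 (limma unadjusted p = 0.539), and with array weights the p was 0.170. Transcripts ENSMUST00000113717, ENSMUST00000113719 and ENSMUST00000046257 averaged 1014, 336 and 241 normalized counts in Sham and 970, 346 and 276 in HF-HI. The retained-intron models ENSMUST00000143918 and ENSMUST00000149038 averaged 419 and 136 in Sham and 381 and 122 in HF-HI. Their limma unadjusted p-values lay between 0.156 and 0.868.

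The transcripts of Sptbn1 differ in where they start, and some also in where they end. ENSMUST00000011877 (chr11:30099396-30219772, minus strand) took 62.1% ± 2.18 (SD, n = 7) of the gene in Sham and 60.6% ± 2.96 (SD, n = 8) in HF-HI. ENSMUST00000006629 (chr11:30099395-30268169) starts farther upstream and took 22.8% ± 1.11 and 23.8% ± 2.55, and both have a coding length of 7089 bases. ENSMUST00000102838 (chr11:30106785-30198257) starts downstream of both and also ends before they do. It has a coding length of 6462 bases and took 8.72% ± 0.966 and 8.68% ± 1.10. The 250 bases before the starts of ENSMUST00000011877 and ENSMUST00000102838 are shown because these transcripts differ in level, with CG dinucleotides in capitals (RefSeq, GRCm38.p6, read on the minus strand).
before ENSMUST00000011877, chr11:30219773-30220022: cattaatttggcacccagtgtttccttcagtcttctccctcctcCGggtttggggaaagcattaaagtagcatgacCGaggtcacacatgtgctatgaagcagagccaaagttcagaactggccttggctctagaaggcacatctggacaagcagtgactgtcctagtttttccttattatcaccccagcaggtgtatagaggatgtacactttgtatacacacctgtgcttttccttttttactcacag
before ENSMUST00000102838, chr11:30198258-30198507: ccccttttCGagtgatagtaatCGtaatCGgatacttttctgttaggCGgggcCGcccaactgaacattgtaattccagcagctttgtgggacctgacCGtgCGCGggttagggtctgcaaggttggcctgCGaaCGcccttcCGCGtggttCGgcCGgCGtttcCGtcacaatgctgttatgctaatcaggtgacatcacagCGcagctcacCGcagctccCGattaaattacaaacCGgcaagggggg

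The window before the more abundant transcript held 2 CG dinucleotides and 46% G and C, and the other held 20 and 55.6%. Over 32851 such windows the medians were 6 and 52.4%, 29.0% of windows held at most 2 and 17.9% at least 20. The annotated start of ENSMUST00000011877 is also the first base of an exon of the longer ENSMUST00000006629. The bases just before it are therefore intron of ENSMUST00000006629, and whether RNA starts there in this cortex was not tested. The level assigned to each transcript depends on how reads in their shared exons were divided. ENSMUST00000006629 ran from 2369 to 2690 normalized counts in Sham and, for HF-HI, from 2345 to 3089 (limma unadjusted p = 0.228), with an unadjusted limma p of 0.0185 among libraries with a size factor above 1, a choice made after seeing the data. Its VSD difference of 0.048 was 0.026 with the striatal covariate (limma unadjusted p = 0.498) and 0.028 without HF-HI replicate 3. ENSMUST00000124231 was the most variable member, from 174 to 659 in Sham and, for HF-HI, from 117 to 1228, where the highest value was again replicate 2. The retained-intron models ENSMUST00000133466 and ENSMUST00000149117 averaged 136 and 164 in Sham and 130 and 175 in HF-HI.

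Ank2 was mostly measured through the end of its RNA. A single-exon retained-intron model, ENSMUST00000182588 (chr3:126921614-126923972, minus strand), held 59.9% ± 4.01 (SD, n = 7) of the gene's listed counts in Sham and 59.6% ± 4.50 (SD, n = 8) in HF-HI. Of its 2359 bases, 2358 lie in the last exon of the coding ENSMUST00000044443, so its reads may belong to coding RNA. The longest listed transcript, ENSMUST00000182064 (chr3:126923325-127225847), holds an exon of 6198 bases, the kind that encodes the giant axonal form of ankyrin-B. The first 60 bases of that exon are shown in capitals after 20 bases of the exon before it, since this exon sets the transcript apart (GENCODE M21, GRCm38).
Ank2 large exon, first bases, exon at chr3:126941610-126947807: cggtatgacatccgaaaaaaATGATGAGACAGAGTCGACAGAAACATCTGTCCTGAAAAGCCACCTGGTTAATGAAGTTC

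ENSMUST00000182064 ran from 210 to 441 normalized counts in Sham (median 349) and, for HF-HI, from 165 to 471 (median 215). In HF-HI 7 of 8 libraries lay below the Sham median, and replicate 4, the shallowest library, held the highest value of all 15. Means were 333 ± 89.3 (SD, n = 7) and 254 ± 101.7 (SD, n = 8), a VSD difference of −0.11 (limma unadjusted p = 0.0869, adjusted p = 0.617). Without HF-HI replicate 4 the difference was −0.15 (limma unadjusted p = 0.00907), and without Sham replicate 3 or 7 the p was 0.0373 and 0.0423. With voom on recovered reads the unadjusted limma p was 0.0210, and over all alternatives p reached 0.174. Its share of the gene was 7.19% ± 1.96 (SD, n = 7) against 5.31% ± 2.16 (SD, n = 8), with an exact permutation p of 0.103, and of 0.0134 without HF-HI replicate 4. ENSMUST00000044443 averaged 473 in Sham and 572 in HF-HI, ENSMUST00000182994 435 and 456, ENSMUST00000183234 404 and 437, and ENSMUST00000183097 214 and 212, with limma unadjusted p-values between 0.207 and 0.877.

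Ank3 was spread over 3 main transcripts. ENSMUST00000182992 (chr10:69706370-70015631, plus strand), with an exon of 2550 bases, held 35.8% ± 1.43 (SD, n = 7) of the gene in Sham and 35.3% ± 2.08 (SD, n = 8) in HF-HI. ENSMUST00000182884 (chr10:69533772-70027438) held 24.3% ± 1.56 and 24.6% ± 1.20. ENSMUST00000182665 (chr10:69989935-70024447), annotated as a target of nonsense-mediated decay, held 23.1% ± 1.20 and 23.4% ± 1.21. ENSMUST00000183148 had the widest spread, from 72.0 to 320 normalized counts in Sham and, for HF-HI, from 27.1 to 539, where the lowest value rests on 33 reads. ENSMUST00000183169 averaged 426 and 385, and the single-exon ENSMUST00000182142 averaged 244 and 257. The limma unadjusted p-values of the 6 lay between 0.372 and 0.891.

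Per kilobase of transcript, the level order over all 15 libraries was Ank2 (1649 normalized counts per kb), Sptan1 (1644), Sptbn1 (1413), Nefl (1155), Ank3 (812), Ina (314), Nefm (229) and Nefh (111). Each neighboring pair kept that order in 15 of 15 libraries, except Ank2 and Sptan1, which did so in 9. With annotated coding transcripts alone, Ank2 was at 279 per kb and Ank3 at 458, while Sptan1 (1412) and Sptbn1 (1319) stayed above Nefl, so the place of the ankyrins depends on their noncoding models. Among the subunits of the filament, the light chain was thus the most abundant per length and the heavy chain the least.

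With group means removed, the gene sums moved together in some pairs within families and not in others. Pearson r was taken over 15 libraries that share depth and dissection, a description with no test. Nefm correlated with Nefh at 0.75 and with Ina at 0.67, and Nefl with Nefh at 0.58. The other pairs of subunits were lower, Nefl with Nefm and Nefh with Ina at 0.38 each and Nefl with Ina at 0.34. Ank2 and Ank3 correlated at −0.10, and at −0.20 without HF-HI replicate 2. The highest pair across families over all 15 libraries was Ina with Ank3, at 0.57, and at 0.42 without HF-HI replicate 2. Sptan1 and Sptbn1 correlated at 0.82, and at 0.60 without HF-HI replicate 2. Sptan1 and Ank3 correlated at −0.58, which became 0.15 without that library, and Sptbn1 and Ank3 at −0.20, which became 0.74. HF-HI replicate 2 held the highest Sptan1 and Sptbn1 and the lowest Ank3, and these 2 relations changed sign without it. Other pairs moved with that library too. Without it Ina with Sptan1 went from −0.06 to 0.57, Ina with Sptbn1 from 0.08 to 0.59 and Nefm with Sptbn1 from 0.17 to 0.47. By the same measure on VSD, the transcripts of other genes most like Nefl were of Arl4c (0.84), Rnf144a (0.80) and Pou3f1 (0.78), and those most like Nefm were of Nlk (0.88), Igfbp4 (0.86) and Pdp1 (0.85). For Nefh they were Syt2 (0.86), Bms1 (0.83) and Cadps (0.82), and for Ina Kalrn (0.91), Exoc6b (0.90) and Hivep2 (0.89). For the main transcripts of Sptan1 they were Atp6v1h (0.86), Fancm (0.85) and Nip7 (0.84), and of Sptbn1 Tmed9 (0.82), Ctdsp2 (0.81) and Eef1a1 (0.80). For Ank2 they were Ganab (0.82), Tufm (0.81) and Hint1 (0.80), and for Ank3 Paqr7 (0.91), Gpr21 (0.88) and Lrrc8b (0.87). Each is the highest of many transcripts searched.

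Partners of the members were counted in the same fit, at an unadjusted limma p under 0.05. Of 41 transcripts of axon initial segment and node proteins bound by or assembled with ankyrins, 5 were higher in HF-HI and 0 lower, with a median VSD difference of 0.02. This is 12.2% of the list, against 8.83% of all transcripts called either way and 4.94% called higher. They included transcripts of the sodium channel Scn1a (706 ± 129.4 against 1001 ± 272, SD), the contactin Cntn1 (547 ± 50.8 against 723 ± 133.5), the adhesion molecule Nfasc (1105 ± 68.0 against 1183 ± 68.5) and Trim46, which bundles microtubules at the initial segment (113 ± 45.4 against 177 ± 43.4). Their limma adjusted p-values lay between 0.319 and 0.555, so none passed.

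Of 62 transcripts of cytolinkers and axonal microtubule proteins, 6 were higher and 2 lower (median 0.02), or 12.9% of the list against 8.83% of all transcripts. The limma adjusted p of each was above 0.1. Macf1, a spectraplakin that joins actin to microtubules, had 3 higher transcripts, of which the largest went from 383 ± 181 to 754 ± 268. Its relative Dst had 1 higher and 1 lower transcript. Transcripts of 1 gene can share reads, so the calls of Macf1 and of Dst are not independent, which limits the reading of the list's percentage. Among stathmins, which bind tubulin, Stmn1 (3638 ± 136.9 against 3866 ± 204.8) and Stmn4 (510 ± 71.7 against 595 ± 39.5) were higher and Stmn2 (1019 ± 70.7 against 949 ± 48.3) was lower.

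Of 33 transcripts of neurofilament kinases and transport motors, 5 were higher and 2 lower (median 0.0066), or 21.2% of the list against 8.83% of all transcripts. None passed the adjusted threshold in limma, and transcripts of 1 gene share reads, so they are not independent calls. Mapk9 and Klc1 each had a transcript in either direction, and the higher transcripts also included 1 of Mapk10 and 1 of the dynein heavy chain Dync1h1 (11785 ± 288 against 12377 ± 305). Of 29 transcripts of spectrin-actin partners, 1 was higher and 1 lower (median −0.01), both of Actg1, or 6.90% of the list. No transcript was called among 7 of other spectrins and ankyrins (median 0.01), 4 of other intermediate filaments (0.02) and 6 of calpains and caspases (0.0074). With groups this small, the absence of a call says little.

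Markers of cell types were counted likewise. Of 7 transcripts of excitatory neurons, 2 were higher in HF-HI (Neurod2 and Camk2a) and 0 lower (28.6% of the list, against 8.83% of all transcripts). Of 11 striatal transcripts, 2 were lower (Penk and Ppp1r1b, 18.2%), of 10 astrocyte transcripts 1 was lower (Aldoc, 10%), and of 5 microglial transcripts 1 was lower (P2ry12, 20%). None of these passed the adjusted threshold in limma. None was called among 6 of interneurons, 17 of oligodendrocytes, 5 of choroid plexus and 4 of endothelium. With the mean of the striatal list as a covariate the Nefm VSD difference was 0.07 (limma unadjusted p = 0.0469). The part of the other marker lists in the Nefm result was not tested.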

How the data were processed

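Dissected cortex was profiled in 7 Sham and 8 HF-HI libraries by stranded, ribosome-depleted total RNA sequencing. The authors aligned reads to mm10 with STAR, estimated counts per transcript with eXpress and applied DESeq2 size factors, Cook's distance cutoffs and a variance-stabilizing transformation. They deposited log2-scale VSD values in a column per library. The versions of STAR and eXpress and the annotation release are not given in the sources used here. A doubling moves the VSD by 0.195 from 100 normalized counts and by 0.531 from 1000, so VSD differences understate log2 changes.

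The transformation was inverted from the shared VSD of a zero count (9.81). All values (100%) were whole multiples of a library's step within 0.1 reads, which gave size factors and reads. Depth therefore covers listed transcripts only, and means below 107.9 normalized counts were not analysed here. Transcripts were matched to GENCODE M21 (10241 of 10370). Of 103 annotated member transcripts, 74 were not listed.

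Groups were compared in limma 3.58.1 (R 4.3.3), eBayes with trend, group as the only term, two-sided, over all transcripts of VSD, or over all genes on log2(summed normalized counts + 1). Benjamini-Hochberg adjustment used the study's threshold of 0.1. Shares and ratios were tested by exact permutation over 6435 splits (Python 3.11.15, numpy 2.4.6). The linear models were tested on simulated data. Alternatives changed prior, scaling, covariates, filters, scale, weights, block and libraries. A direction was called reversed only where both differences were at least 0.005 in size. The log2 form of the shares was compared by its count of calls only.

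All member transcripts are named, with list genes called at an unadjusted p under 0.05 (a few items are not reported here) and the 3 transcripts most correlated with each gene's main transcript. Members and lists were chosen with earlier results of these data known.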

Additional observations from a re-analysis of the deposited data

Results flagged for a closer look

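A single result stood far from the rest of its group by Dixon's criterion. The summed level of Sptan1 in HF-HI replicate 2 was 13132 normalized counts, against 11914 in the next highest HF-HI library, a gap of 0.647 of the group's range. It was 1 of 66 groups of values checked, and chance flags about 1 in 20. The same library stood apart on the first principal component and held the highest Sptbn1 and the lowest Ank3, and the cause was not tested.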

How the results depend on the processing

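Of 1496 values recomputed for 68 single results, 26 lost a call, 14 gained one and 100 changed direction. The other 1356 kept their side of the threshold. A change of sign counted only where both differences were at least 0.005 in size, so these 1356 include smaller changes of sign. An example is the Sptan1 sum, −0.0026 with the depth covariate against 0.035. The cause of each change was not tested. A filter also leaves a smaller number of transcripts or libraries. The choice of libraries with a size factor above 1 was made after seeing the data and leaves 6 Sham and 3 HF-HI.

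Called at an unadjusted p under 0.05 were 0 member transcripts with the depth covariate, 2 with voom and 2 in deeper libraries, against 1. Over all transcripts 533 were called with the depth covariate, 525 with a mean of at least 300 and 541 in deeper libraries, against 916, and 1 passed the adjusted threshold in the last. Member genes called were 0 with the depth covariate and 0 in deeper libraries. Shares called were 0 with log2 ratios. Ratios called were 0 in deeper libraries, adjusted or not.

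Same-numbered libraries did not deviate together (correlations −0.14 to 0.09, with 1 of 7 Sham libraries closest to its own number), so no pairing by number was visible. Whether same-numbered libraries shared a batch was not tested. With a replicate block over 7 numbers, 1 share was called, and ratios called were 1 unadjusted and 0 adjusted. Directions that reversed under the block were Sptan1 ENSMUST00000113717 (VSD 0.04, share 0.078 percentage points) and Nefl to Nefh (0.0058).

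Other reversals, all in differences that were not called, follow. With the depth covariate they were Sptbn1 ENSMUST00000124231 (−0.054), Ank3 ENSMUST00000183148 (−0.078) and ENSMUST00000182992 (0.0072), and the Nefh sum (−0.13). With the striatal covariate they were Ina (−0.012) and ENSMUST00000183148 (−0.057). On log2 with 1 added they were ENSMUST00000124231 (−0.011) and ENSMUST00000183148 (−0.077), and with 10 added the latter (−0.048). With voom they were ENSMUST00000124231 (−0.071), ENSMUST00000183148 (−0.28) and the Nefh sum (−0.014). With array weights they were ENSMUST00000183148 (−0.026) and ENSMUST00000182992 (0.0068). In deeper libraries they were Sptan1 ENSMUST00000046257 (−0.077), Sptbn1 ENSMUST00000133466 (0.0077) and ENSMUST00000124231 (−0.18), Ank3 ENSMUST00000183169 (0.046), ENSMUST00000183148 (−0.086) and ENSMUST00000182992 (0.017), the Nefh sum (−0.012) and the Sptan1 sum (−0.0065).

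Leaving out 1 library gave 0 to 3 member transcripts, 1 to 2 member genes, 0 to 1 shares and 1 to 3 ratios unadjusted, and 0 to 1 of all transcripts and 0 to 3 ratios adjusted. VSD differences ranged from −0.099 to 0.055 for ENSMUST00000113717, −0.017 to 0.053 for ENSMUST00000113719, −0.0077 to 0.033 for ENSMUST00000100225, −0.03 to 0.0078 for ENSMUST00000133466, −0.017 to 0.021 for ENSMUST00000102838, −0.057 to 0.098 for ENSMUST00000124231, −0.007 to 0.033 for ENSMUST00000182994, −0.035 to 0.086 for ENSMUST00000183148 and −0.022 to 0.023 for ENSMUST00000182992. The log2 difference ranged from −0.045 to 0.063 for Nefh and −0.0082 to 0.061 for Ina. Share differences, in percentage points, ranged from −1.62 to 0.57 for ENSMUST00000113717, −0.19 to 0.33 for ENSMUST00000113719, −2.33 to 0.47 for ENSMUST00000100225, −0.015 to 0.43 for ENSMUST00000046257, −0.14 to 0.0087 for ENSMUST00000133466, −0.33 to 0.17 for ENSMUST00000102838, −0.28 to 1.04 for ENSMUST00000124231, −1.23 to 0.96 for ENSMUST00000182588, −0.35 to 0.44 for ENSMUST00000182994, −0.072 to 0.81 for ENSMUST00000182884, −0.23 to 1.35 for ENSMUST00000183148 and −0.084 to 0.48 for ENSMUST00000182665. Ratios ranged from −0.064 to 0.032 for Nefl to Nefh and −0.065 to 0.043 for Nefh to Ina.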
